A study of Mus musculus with 22 samples.

Results

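The shortest 10% of the expressed loci of mouse liver were examined for how their mRNAs moved between total RNA and heavy polysomal RNA after tunicamycin (Tm). Each locus is known by a Cufflinks identifier for transcripts that overlap, without gene name or position. Of 39897 loci, 9383 had a mean of at least 50 scaled fragments over the 6 groups at 0 h, 2 h and 4 h, and 9378 of these had an estimate of length. Length was taken as fragments divided by FPKM (fragments scaled by transcript length and library size) in each 0 h total library with at least 20 fragments of the locus, and was set relative to the median locus of that library. The median over the libraries was used (all 3 for 932 of the short loci, and a single one for 1), and the 937 loci with the lowest values are called short loci here. All but 1 of them (XLOC_001948, which lacked a complete estimate in a polysomal library at 4 h) had a ratio of polysomal over total mRNA, and so did 8432 longer loci. The choice thus rests on fragments and FPKM of the 0 h total libraries and on the mean level over the 6 groups, and the lengths are given as a description.

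Liver RNA came from 5-week-old male C57BL/6 mice, with WT in the titles of the 10 h samples only, that received 0.1 mg/kg Tm intraperitoneally at 8 am and were culled at 10 am (2 h), noon (4 h) or 6 pm (10 h). The 0 h mice were culled at 9 am. The methods call them controls and do not say whether they were injected, while the labels list Tm for them as well. No vehicle group of the later hours is among the samples used here, so that time after Tm and time of day cannot be told apart. Total RNA had 3 libraries per time point, and heavy polysomal RNA, from pooled gradient fractions with more than 3 ribosomes per mRNA, had 3 labelled libraries for 4 h and 10 h each and 2 for 0 h and 2 h each. For the polysomal RNA of 0 h and 2 h the tables hold 3 read groups that are not tied to the 2 labelled libraries, so only the authors' group means were used there, with no error and no test. By the labels the 0 h to 4 h libraries form one library pool and the 10 h libraries another, each with tables of its own. The methods instead describe a single pool for every library, and the pools are named here by the labels. The depth ranged from 9788578 to 17283500 counted fragments per library in the 12 libraries of the first pool and from 10797931 to 26869564 in the 6 libraries at 10 h. The median short locus held from 238 to 462 fragments in each of the 12 libraries of the first pool. The methods name 3 animals per time point, and no source used here ties a library to an animal, so p-values measure the spread between these libraries. The tissue label could not be checked against liver markers, because the loci carry no gene names.

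Tm blocks N-linked glycosylation and leaves misfolded proteins in the endoplasmic reticulum, and cells respond by phosphorylating the initiation factor eIF2α, which slows the start of translation on most mRNAs. An mRNA sediments with heavy polysomes when several ribosomes translate it at the same time. The number of ribosomes on an mRNA depends on how often translation starts and on the length of its coding sequence, so that a short coding sequence has room for few ribosomes. Many short mRNAs of liver encode secreted, ribosomal and mitochondrial proteins, and which loci encode these is not known here.

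The short loci had relative lengths from 3.82e-05 to 0.349628 of the median locus, with a median of 0.239 and quartiles of 0.173 and 0.300. The estimate was close between libraries. The largest of the 3 values was a median of 1.12 times the smallest, the Spearman correlations of length between 0 h libraries across loci were 0.966 to 0.980, and 878 of the short loci were also among the shortest 10% when length was taken from the 4 h total libraries. The longest short locus, XLOC_035587, had a relative length of 0.349628, and the next locus outside, XLOC_035296, 0.349638. Their ratios of polysomal over total mRNA changed by 0.10 and -0.79 (log2) from 0 h to 2 h. The 50 longest short loci had a median change of -0.33 and the 50 loci just outside had -0.47. FPKM divides by the length that is open to fragments, so the relative length of transcripts not much longer than a fragment falls below their true relative length. Below 0.1 of the median locus were 69 short loci, 16 of them below 0.01.

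At 0 h the short loci lay in heavy polysomes more than the other loci did, and at 2 h and 4 h they no longer did. The ratio was taken as log2 of the polysomal group mean plus 1 minus log2 of the total group mean plus 1, so that 0 is the level at which a locus takes equal parts of both libraries. Its median over the 936 short loci was 0.43 at 0 h, and it had fallen to -0.14 by 2 h and was -0.11 by 4 h. Over all 9368 loci with a ratio the medians were -0.04, 0.00 and -0.00. The share of scaled fragments that fell in short loci was 17.16%, 11.19% and 10.88% in polysomal RNA at these times. In total RNA it was 11.87%, 11.65% and 10.95%. The authors scaled all libraries to one size, so each value is relative to the other mRNAs and a loss common to all mRNAs would not be seen. In whole liver, fewer cells of a type that expresses a locus and less of its RNA per cell cannot be told apart.

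**Figure D1:**
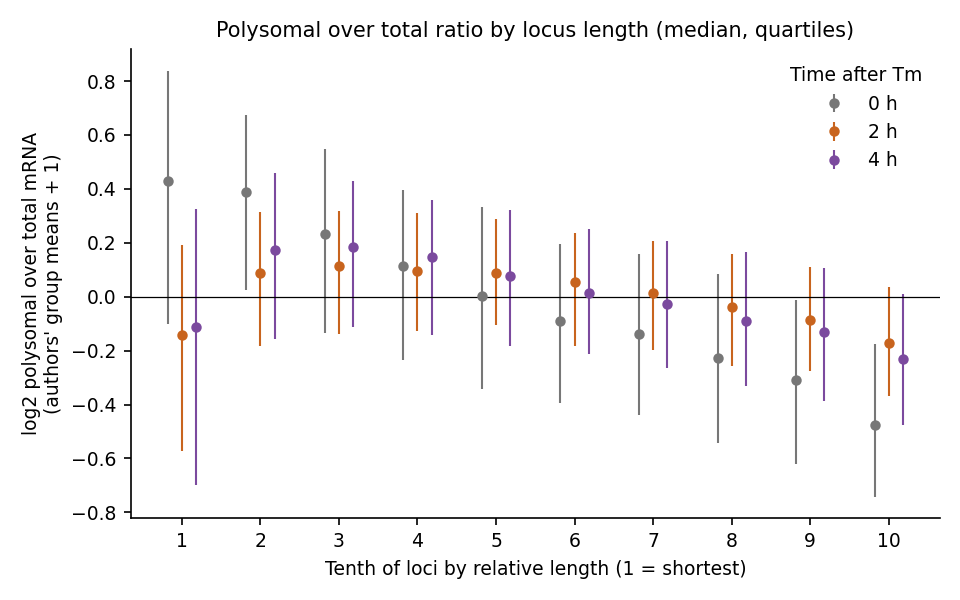
Log2 ratio of polysomal over total mRNA (authors' group means plus 1) at 0 h, 2 h and 4 h after Tm for loci in 10 groups of increasing relative length. Points are medians and lines are quartiles over loci. At 0 h the median falls from 0.43 in the shortest group to -0.48 in the longest, and at 2 h and 4 h the shortest group lies below the next, at -0.14 and -0.11.

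The plot of the ratio by length shows how the order of the groups changed. At 0 h the median ratio fell with every step of length, from 0.43 in the shortest group and 0.39 in the next to -0.48 in the longest. At 2 h the highest medians were in groups 3 and 4, at 0.11 and 0.10, and the range over groups 2 to 10 had narrowed to between 0.11 and -0.17. The shortest group then had a lower median than 8 of the other 9 groups, and its quartiles of -0.57 and 0.19 lay farther apart than those of any other group. At 4 h its quartiles were -0.70 and 0.32, again the widest of the 10 groups.

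The ratio was below its 0 h value at 2 h in 809 of the 936 short loci (86.4%) and at 4 h in 835 (89.2%), against 46.7% and 44.2% of all loci with a ratio. At 2 h it was at least 1.5-fold lower in 486 short loci (51.9%), where the same was seen in 10.2% of all loci with a ratio. At 4 h it was at least 1.5-fold lower in 455 (48.6%), against 8.02% of all loci. A ratio at least 1.5-fold higher was seen in 19 short loci (2.03%) at 2 h and in 11 (1.18%) at 4 h, against 9.18% and 3.38% of all loci. The short loci made up 50.6% of the 960 lower loci at 2 h and 60.6% of the 751 at 4 h. The median log2 change was -0.61 at 2 h and -0.57 at 4 h, against 0.04 and 0.06 for all loci with a ratio. In the next longer 10% of the loci the shares were 23.6% and 16.1%, with median changes of -0.33 and -0.24. The 0 h groups enter both changes, which are therefore not independent of each other.

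**Figure D2:**
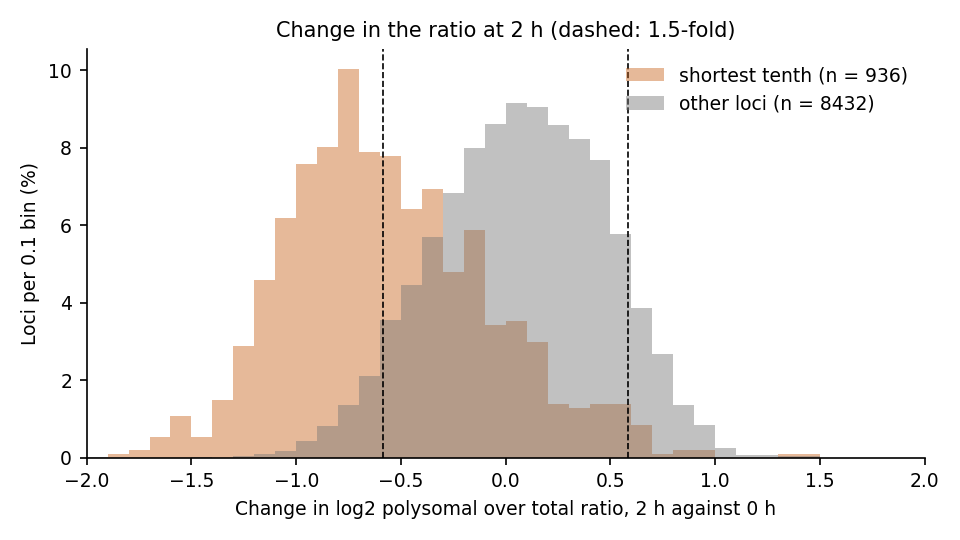
Change in the log2 ratio of polysomal over total mRNA from 0 h to 2 h, as the percentage of loci in bins of 0.1, for the 936 short loci and the 8432 longer loci. Dashed lines mark a 1.5-fold change. The short loci are centred on -0.61 with 51.9% below the lower line, and the longer loci on 0.08 with 5.62% below it.

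In the median, the change lay in the polysomal means. From 0 h the median short locus fell by 0.63 (log2) in the polysomal means at 2 h and by 0.64 at 4 h. In total mRNA the medians were -0.03 and -0.07. The distribution of changes at 2 h was broad, with a 5th percentile of -1.27, a 95th percentile of 0.32 and an SD over short loci of 0.49. Dispersions came from the total libraries and, for polysomal RNA, from the total and polysomal 4 h libraries fitted together. From them, a difference of 4 means of 3 libraries each would have a median spread of 0.23 per short locus without any change. The 4 means were taken as independent, although total and polysomal libraries of the same number deviated together at 4 h. Of the 486 lower loci, 470 were lower by more than 2 times their own expected spread. If the polysomal means of 0 h and 2 h hold only the 2 labelled libraries, the median spread is 0.26 and the number 454. The 1.5-fold limit is 0.585 in log2 and by itself exceeds 2 times either median spread. The spread of the 486 loci had a 3rd quartile of 0.26, so most of them pass by the way they were chosen. The numbers 470 and 454 are therefore no test of the falls. Libraries of polysomal RNA from 0 h and 2 h gave no spread of their own here, so both numbers assume that they vary like the 4 h libraries of both RNAs.

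The short loci as a set moved between libraries of the same group. After the median of all loci was set to 0, their median log2 deviation from the group mean ranged from -0.12 to 0.16 over the 12 libraries of the first pool. The total library 3 at 2 h was highest, at 0.16, and the polysomal libraries 1 and 3 at 4 h lay at -0.12 and 0.12. The longest 10% of the loci deviated the other way in the first of these libraries, by -0.13. They also did so in the other libraries, except in library 2 of total and of polysomal RNA at 4 h. In polysomal libraries 1 and 3 at 4 h the longest loci lay at 0.09 and -0.06. In total library 3 at 0 h they lay at -0.12, where the short loci were at 0.07. Libraries of the same group thus differed by length of the loci. In each of the 4 groups the short loci were below 0 in library 1 (-0.05 to -0.12) and above 0 in library 3 (0.05 to 0.16). Without total library 3 at 2 h the number of lower short loci at 2 h was 428 and the median change -0.54. Without polysomal library 1 at 4 h the number at 4 h was 388 and the median change -0.50. Without polysomal library 3 they were 509 and -0.64. The median change of total mRNA at 2 h, -0.03, was smaller than the deviation of 0.16 of total library 3 at 2 h. The median change at 4 h was -0.07, where the total libraries deviated by -0.06 to 0.07 at 0 h and by -0.05 to 0.05 at 4 h. For the polysomal RNA of 0 h and 2 h the deviations are not known.

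**Figure D3:**
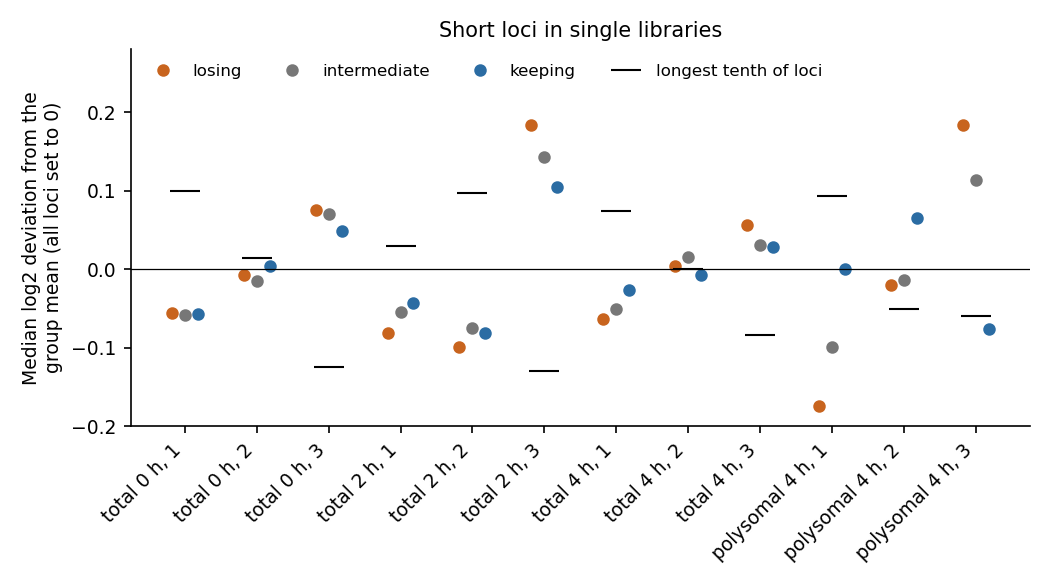
Median log2 deviation of single libraries from their group mean, over the short loci that lost polysomes, were intermediate or kept polysomes at 2 h, and over the longest 10% of the loci (bars), with the median of all loci set to 0. The widest gap between losing and keeping loci is in the polysomal libraries at 4 h, where losing loci lie at -0.17 in library 1 and 0.18 in library 3.

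Short loci were then divided by the change at 2 h. The ratio was at least 1.5-fold lower in 486 (51.9%), called losing loci here, and it was higher, equal or less than 1.2-fold lower in 237 (25.3%), called keeping loci. The other 213 (22.8%) were intermediate. Among the longer loci the shares were 5.62% losing, 79.1% keeping and 15.3% intermediate. These classes are chosen on the change from 0 h to 2 h, so their ratios at 0 h and 2 h are a description without a test, and their levels, lengths and ratios were then read in the 4 h libraries, which the division does not use.

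The losing and the keeping loci stood farther apart at 0 h than at the later times. The median ratio of the losing loci had been 0.71 at 0 h and that of the keeping loci -0.19, with the intermediate loci at 0.39 between them. At 0 h the ratio was above 0 in 87.4% of the losing and 39.2% of the keeping loci. A high value at 0 h by itself makes a fall more likely, because the 0 h groups enter both. At 2 h the medians were -0.19 in losing, -0.05 in intermediate and -0.01 in keeping loci, so the losing loci then were the lowest. At 4 h they were -0.13 in losing, -0.05 in intermediate and -0.14 in keeping loci, and the share of loci above 0 was 42.4%, 46.9% and 43.5%. The median keeping locus thus was low in heavy polysomes at 0 h already, and the median losing locus was above it at 0 h, below it at 2 h and 0.01 from it at 4 h. A fall of the losing loci towards the keeping loci was seen in longer loci as well, and the division on the change by itself favours it. Among all longer loci the medians of losing and keeping loci were 0.65 and -0.22 at 0 h and 0.08 and -0.03 at 4 h. In the next longer 10% they were 0.69 and 0.06 at 0 h and 0.08 and 0.17 at 4 h.

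**Figure D4:**
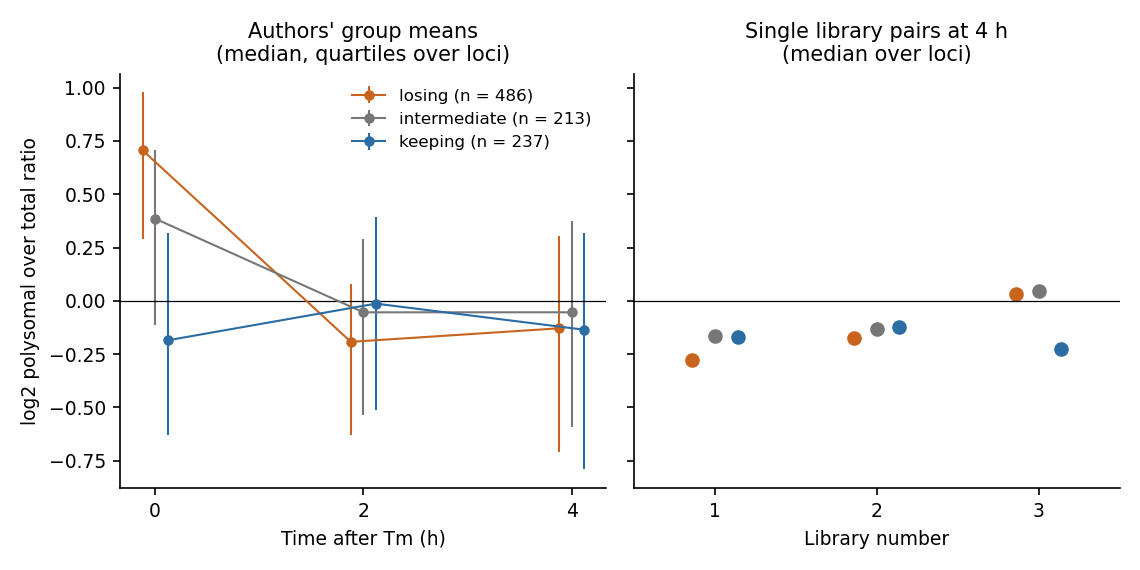
Left, log2 ratio of polysomal over total mRNA (authors' group means plus 1) against time after Tm for losing, intermediate and keeping short loci, with medians and quartiles over loci. Right, the median of the same ratio at 4 h in each pair of total and polysomal libraries with the same number. The classes are 0.71, 0.39 and -0.19 at 0 h and lie between -0.05 and -0.14 at 4 h.

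In single library pairs at 4 h the order of the classes was not the same. The losing loci had medians of -0.28, -0.17 and 0.03 in the pairs 1, 2 and 3, and the keeping loci of -0.17, -0.12 and -0.23. The losing loci were lower than the keeping loci in the first and second pairs and higher in the third. The difference of losing minus keeping loci was 0.01 in the group means, and over the 3 pairs it ranged from -0.11 to 0.26 with an SD of 0.20. It changed sign with single libraries, from -0.10 without polysomal library 3 to 0.10 without polysomal library 1, so no difference between the classes was detectable at 4 h with this spread. With a 2-fold limit for losing loci the difference was -0.26.

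Losing loci were the more abundant ones. In total mRNA at 4 h the median FPKM was 62.2 in losing, 30.1 in intermediate and 30.6 in keeping loci. The log2 ratio of losing over keeping was 1.03, and it was between 1.01 and 1.24 in each of the 3 total libraries. The median number of fragments was 448 in losing loci, 249 in intermediate and 233 in keeping loci. Losing loci were also somewhat shorter, with a median relative length from the 4 h total libraries of 0.225, against 0.264 in intermediate and 0.247 in keeping loci. The log2 ratio of losing over keeping lengths was -0.13, and it ranged from -0.17 to -0.07 over the 3 libraries. Without the 69 loci below 0.1 of the median length, left out after seeing the data, it was -0.08. The ratio of length in polysomal over length in total libraries at 4 h had medians of 0.961, 0.974 and 0.988 in losing, intermediate and keeping loci. A higher level and a shorter length of losing loci were also seen in the next group by length. Its losing loci had medians of 30.8 FPKM, 436 fragments and 0.426 in length, against 18.5, 280.5 and 0.453 in keeping loci. Among all longer loci these medians were 16.75, 355 and 0.540 in losing and 7.895, 345 and 1.25 in keeping loci.

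The share of losing loci rose with the level. Short loci were put into 4 groups of similar size by their fragments in total mRNA at 4 h, and from the lowest to the highest group 38.5%, 46.4%, 55.6% and 67.1% were losing. Keeping loci made up 32.9%, 30.4%, 20.9% and 17.1% of the same groups. The median change at 2 h went from -0.46 in the lowest group to -0.53, -0.66 and -0.80. The median relative length also fell, from 0.249 in the lowest to 0.225 in the highest group. The expected spread of a change was 0.31 in the lowest and 0.21 in the highest group, and its part in the shares was not tested. Among the longer loci, divided at the same numbers of fragments, 5.47%, 5.54%, 5.17% and 6.35% were losing. The group of loci next in length after the short loci was not divided by level on its own. Its losing loci also had more fragments than its keeping loci, with medians of 436 and 280.5, so a link with level is not particular to the short loci. By FPKM the short loci gave 38.9%, 42.7%, 55.6% and 70.5% losing, and the longer loci with the same limits 4.15%, 6.87%, 11.1% and 11.4%. FPKM holds the length, and the median relative length fell from 0.280 to 0.174 over these 4 groups of short loci.

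**Figure D5:**
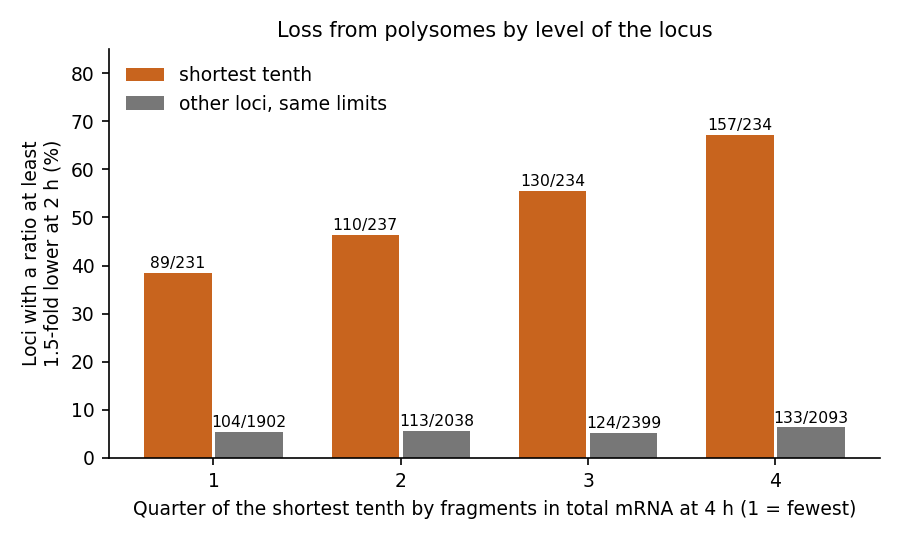
Percentage of loci with a ratio of polysomal over total mRNA at least 1.5-fold lower at 2 h, by fragments in total mRNA at 4 h, for the short loci and for the longer loci divided at the same limits. Numbers above the bars are losing loci over all loci of the group. The share rises from 38.5% to 67.1% in the short loci and is 5.17% to 6.35% in the longer ones. The group next in length after the short loci is part of the longer loci and is not shown on its own. Its losing loci also had more fragments than its keeping loci, with medians of 436 and 280.5.

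Within the short loci, the shortest had the lowest ratios. In 5 groups of 187 short loci by length from the 4 h total libraries, from the shortest to the longest, 62.6%, 55.6%, 51.3%, 53.5% and 36.9% were losing. The median ratio at 4 h was -0.79 in the shortest group and then -0.11, -0.03, 0.06 and 0.07. The shortest group was also low at 0 h, at 0.02, where the other groups lay between 0.45 and 0.59. Level and length were then combined, each divided at its median. Among the shorter loci 70.4% of 257 with more fragments were losing and 43.1% of 211 with fewer. Among the longer of the short loci 50.2% of 211 with more fragments were losing and 42.2% of 256 with fewer. The median change at 2 h was -0.87 in the short and abundant loci and between -0.59 and -0.50 in the other 3 groups.

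The 69 short loci below 0.1 of the median length behaved unlike the rest in level. Their median ratio went from -0.13 at 0 h to -0.999 and -1.02 at the later times, and 47 of them (68.1%) were losing. The other 867 short loci had medians of 0.46, -0.09 and -0.06, and 439 of them (50.6%) were losing. In the 16 loci below 0.01 the median ratios were -0.32, -1.70 and -0.81, and 14 were losing. Their total mean at 2 h was above that of 0 h in 15 of the 16, by a median of 0.26 (log2), and their polysomal mean was lower in 15, with a median change of -0.93. Without total library 3 of 2 h, left out after seeing the data, the total mean was above in 12, by a median of 0.07, and 13 were losing. Without the 69, the median change of the short loci was -0.60 at 2 h and -0.55 at 4 h.

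The largest fall by the rule for naming loci (a mean of at least 200 scaled fragments and the same sign at both times) was at XLOC_026312, with a relative length of 0.00148. Its total means were 234.6, 380.7 and 209.5 scaled fragments over the 3 times, and its polysomal means 206.2, 94.6 and 117.7. The ratio fell by 1.81 on the log2 scale at 2 h and by 0.64 at 4 h. The 2 h total libraries held 305, 200 and 533 fragments, so the total mean of this locus rested largely on library 3.

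XLOC_031851 (relative length 0.0749) had the next largest fall, with changes of -1.74 and -1.78. Its total mRNA rose at 4 h, from 4774, 7590 and 4638 fragments in the 0 h libraries to 23936, 24069 and 22591 at 4 h, without overlap. The polysomal means were 7875, 2155 and 9974 scaled fragments over the 3 times, so the polysomal level at 4 h was above that at 0 h while the ratio was lower. By the quasi-likelihood test of edgeR, adjusted after Benjamini and Hochberg, the rise in total mRNA was 2.12 ± 0.17 (log2 fold change and standard error, adjusted p = 4.98e-06).

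Among the rises, XLOC_033803 (relative length 0.178) had ratios of -1.37, 0.03 and -0.69 over the 3 times. Its polysomal means were 135.2, 283.7 and 174.2 scaled fragments, while its total means were 351, 277.6 and 282. It therefore reached an equal share in polysomes at 2 h and was lower again at 4 h. XLOC_032013 had changes of 1.30 and 1.72, but its 0 h means were 5.87 scaled fragments in polysomes and 13.4 in total RNA, and the expected spread of its change was 0.65. Only 1 of the 0 h libraries held enough fragments for its length. It held 12, 4 and 25 fragments in the total libraries of 0 h and 2062, 3112 and 1582 in those of 4 h, so it passed the filters on low values only through the groups in which it is high.

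Polysomal and total mRNA could be tested at 4 h, where both have 3 libraries with counts of their own. Over 12575 loci tested in edgeR, with a call at 2-fold or more and an adjusted p below 0.05, 163 of 935 short loci differed (17.4%), where 4.52% of all loci tested did. Of these 149 were lower in polysomes (15.9%, against 3.18% of all loci) and 14 higher (1.5%, against 1.34%). The number higher depended on single libraries. It was 27 (2.89%, against 1.28%) without polysomal library 1 and 8 (0.855%, against 0.976%) without polysomal library 3. The lower loci numbered 132 and 143 in these 2 fits. Upper quartile normalization gave 24 higher (2.57%, against 1.84%) and 123 lower (13.2%, against 2.5%). With no minimum fold change 474 short loci differed (50.7%, against 26.3%), and 323 were lower (34.5%, against 14.7%) and 151 higher (16.1%, against 11.6%). The libraries did not overlap in 346 short loci that were lower in polysomes (37.0%, against 20.7% of all loci tested) and in 230 that were higher (24.6%, against 22.4%). The median log2 fold change was -0.11 over short loci and 0.00 over all loci. Lower in polysomes were 80 of the 486 losing loci (16.5%), 25 of 212 intermediate (11.8%) and 44 of 237 keeping loci (18.6%), so loci with a low share in heavy polysomes were found in each class.

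Among called loci without overlap and with a mean of at least 200 fragments, the largest excess in polysomes was at XLOC_028812, an intermediate locus of relative length 0.285. Its polysomal libraries at 4 h held 293, 453 and 395 fragments and its total libraries 133, 162 and 120, a log2 fold change of 1.31 ± 0.19 (standard error, edgeR adjusted p = 0.001002). The groups did not overlap. Its ratio in the means had been 1.24 at 0 h and 0.77 at 2 h. The next was XLOC_014101, a keeping locus of relative length 0.347 with 600, 650 and 604 fragments in polysomes and 239, 307 and 237 in total RNA. The ratios were 1.26, 1.11 and 1.09, so this locus did hold a high share in polysomes at all 3 times.

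By the same rule the largest deficit was at XLOC_003080, an intermediate locus of relative length 0.115, with 262, 270 and 253 fragments in polysomes at 4 h and 1211, 1417 and 1455 in total RNA. The log2 fold change of -2.55 ± 0.14 (standard error) had an edgeR adjusted p of 9.84e-06, and its ratio had already been -1.44 at 0 h. XLOC_035147, a keeping locus of relative length 0.129, held 104, 90 and 76 fragments in polysomes and 343, 394 and 374 in total RNA. The ratio of this locus went from -1.25 to -1.33 and then -2.19. These 2 loci were among the low ones at every time, unlike the median losing locus.

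In total mRNA few short loci were called. At 2 h edgeR called 6 of 936 short loci (0.641%), where 0.397% of all 12606 loci tested were called, 5 of them higher (0.534%, against 0.317%) and 1 lower (0.107%, against 0.0793%). The 0 h and 2 h libraries did not overlap in 33 short loci that were higher (3.53%, against 7.31% of all loci) and 105 that were lower (11.2%, against 8.04%). For 4 h it called 45 (4.81%, against 8.55% of all loci), 27 higher (2.88%, against 5.08%) and 18 lower (1.92%, against 3.47%). Upper quartile normalization gave 22 higher (2.35%, against 3.96%) and 23 lower (2.46%, against 4.91%), so the balance of directions depended on the scaling. With no minimum fold change 180 were called (19.2%, against 30.5%), 78 higher (8.33%, against 17.8%) and 102 lower (10.9%, against 12.7%). The 0 h and 4 h libraries did not overlap in 129 short loci that were higher (13.8%, against 25.1%) and 219 that were lower (23.4%, against 19.6%). The share of short loci called at 4 h was below that of all loci. Both comparisons use the same 0 h libraries, which also gave the lengths.

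The largest fall in total mRNA among called short loci without overlap between the groups was at XLOC_023236 (relative length 0.255) at 4 h. It counts as a losing locus, but its change in the ratio at 2 h was -0.79 with an expected spread of 0.80. Its fragments were 500, 9524 and 1557 in the 0 h libraries and 185, 93 and 107 at 4 h. EdgeR gave a log2 change of -4.57 ± 0.94 (standard error) with an adjusted p of 0.00317. The 2 h libraries held 8802, 1218 and 11201 fragments, so that libraries of the same time point differed widely. The groups at 0 h and 4 h did not overlap, and the log2 fold change stayed between -5.09 and -3.26 with 1 library left out. The 1 locus called lower at 2 h was XLOC_027169, a losing locus near the length limit (relative length 0.347), with 251, 205 and 112 fragments in the 0 h libraries and 62, 26 and 24 in the 2 h libraries. It was no longer called without 0 h library 1, 2 h library 2 or 2 h library 3, with an edgeR adjusted p of up to 0.0790. The ratio of this locus went from 0.75 to 0.15 and then -0.18, and its change of -0.61 at 2 h had an expected spread of 0.45.

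The 10 h libraries have a table of their own with loci numbered separately, so the short loci could not be followed to 10 h. The rule on length was applied anew to that table. Lengths came from its 10 h libraries, which also enter the ratio, and the mean level from the 2 groups of 10 h. Of its 10458 loci with a length, 1045 were short, 1029 of them with a ratio. Their median ratio at 10 h was 0.28, against -0.02 over all loci, and the next group by length was at 0.00. This value varied with the library. Over the 9 pairs of a total and a polysomal library the median of the short loci ranged from -0.27 to 0.95, where it ranged from -0.28 to 0.04 at 4 h. The total libraries at 10 h deviated from their group mean by -0.10, -0.41 and 0.42 in the median of the short loci, and the polysomal libraries by 0.13, 0.06 and -0.21. EdgeR called 0 of these 1029 loci and 0% of all 13195 tested, while 239 short loci (23.2%) had an unadjusted p under 0.05, against 6.90% of all loci, and DESeq2 called 44 of 1023 with an adjusted p (4.30%, against 0.519% of all loci). Of these 43 were higher in polysomes (4.20%, against 0.428%) and 1 lower (0.0978%, against 0.0905%). The libraries did not overlap in 178 short loci that were higher in polysomes (17.3%, against 4.34% of all loci) and in 38 that were lower (3.69%, against 9.04%). With no 0 h library in this table, no change from 0 h could be given.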

How the data were processed

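Single-end libraries from a stranded poly(A) kit were aligned by the authors with TopHat2 2.0.13 to a GRCm38 transcriptome and quantified with Cufflinks 2.2.1 (Cuffdiff, correcting for sequence bias and multiply mapped reads). The authors deposited a raw fragment count and an FPKM for every locus in each read group, and per group a mean signal of fragments divided by library size factors. The depth was 9788578 to 26869564 fragments per library, and counting error is largest in loci of few fragments. Read groups outside the labelled samples, or not tied to one, were not used (99: 69 of 81 and 30 of 36). In either table, 54 loci without a complete estimate were left out.

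Ratios were computed from the group means with a pseudocount of 1 in Python 3.11.15, numpy 2.4.6 and pandas 2.3.3. Counts were tested with edgeR 4.0.16 (R 4.3.3; TMM, filterByExpr, quasi-likelihood test) over all loci, with all 9 total libraries in 1 fit and the pairs at 4 h and at 10 h in fits of 6 libraries. Alternatives were DESeq2 1.42.0, other normalization, filters, thresholds, lengths, class limits, the replicate number as a block, and each library left out. On simulated counts for polysomal against total mRNA at 4 h (11260 loci), edgeR recovered 86% of 2-fold and 100% of 4-fold changes, and at 10 h (11899 loci) 8% and 92%. Recovery was counted at an adjusted p below 0.05 without the 2-fold minimum of the calls. The simulation gave all loci of a comparison the same dispersion and drew the libraries independently. These percentages therefore do not give the share of changes that the calls at 2-fold or more would find. At 4 h, total and polysomal libraries of the same read group number deviated together (correlations of 0.293, 0.343 and 0.338 over loci, other numbers -0.231 to -0.0979), so these numbers pair the libraries there. The calls and p-values for polysomal against total mRNA at 4 h come from the fit without pairs, unless the block is named. In the other comparisons at least 1 same-number correlation was under 0.1 (0.0198 to 0.286 in total mRNA at 2 h, 0.00247 to 0.0727 at 4 h, -0.189 to -0.0692 in the 10 h pair), so the numbers were not taken as pairs. No interaction test was run, since polysomal libraries at 0 h and 2 h could not be tied to counts.

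The members, classes, thresholds and lists were chosen with earlier results of these data known. Loci were named by rule, at most 2 rises and 2 falls per comparison: by the change at 2 h (mean of at least 200 scaled fragments and the same sign at 4 h), or by the log2 fold change among called loci without overlap between the groups and with a mean of at least 200 fragments (polysomal against total) or 50 (total mRNA, 1 rise and 1 fall). The loci beside the length limit are given as well, and XLOC_001948 is named for its missing value.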

Additional observations from a re-analysis of the deposited data

How the results depend on the processing

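Of 203 alternative values, 171 stayed within 1.5 times the count or within the spread of the libraries and 31 moved more, while 1 moved more and changed sign (losing minus keeping at 4 h). The same difference, 0.01, also changed sign within the spread, to -0.03 without total library 1 and -0.10 without polysomal library 3 of 4 h. A threshold of 2-fold gave 165 lower and 2 higher short loci at 2 h, and 141 and 2 at 4 h, while 1.2-fold gave 57 higher at 2 h and 706 lower and 42 higher at 4 h. Requiring more than 2 times the expected spread left 11 higher at 2 h, and 9 if the polysomal means of 0 h and 2 h hold 2 libraries, which was chosen after seeing the data. A minimum mean of 10 (1185 short loci) gave 62 and 38 higher and a median change of -0.47 at 2 h, a minimum mean of 200 (587) gave 5 higher at 4 h, and a median change of 0 over all loci gave 6. The shortest 5% (467) had 269 lower at either time and 12 and 6 higher, and the shortest 20% (1872) had 46 and 25 higher and median changes of -0.45 and -0.38. Counts were compared as such, also where the number of short loci differed. The shortest 20% had 707 lower at 2 h and the minimum mean of 10 had 506. Both count as unmoved, though they are smaller shares than 51.9%. The 269 of 467 count as moved but are a larger share. For such sets the tally does not measure how stable the shares are. With losing loci taken at 2-fold, losing minus keeping at 4 h was -0.26, the log2 ratio of length -0.41 and that of FPKM 1.97, and with a minimum mean of 200 the last was 0.87. The cause was not tested. The shares over all loci are not given for these counts of ratios, nor for those with single libraries left out. The counts therefore do not show whether the contrast with all loci held.

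Total mRNA at 2 h gave 12 called short loci (1.28%, against 0.600% of all loci) when all loci with at least 1 count were tested. With no minimum fold change 180 were called in total mRNA at 4 h (19.2%, against 30.5%) and 474 in polysomal against total at 4 h (50.7%, against 26.3%). In the 10 h pair DESeq2 called 44 (4.30%, against 0.519% of all loci) and the test over all loci with at least 1 count 82 (7.97%, against 0.662%). With the replicate block 165 were called at 4 h (17.6%, against 4.88% of all loci) in place of 163. In total mRNA the block gave 8 (2 h, 0.855%, against 0.405%) and 47 (4 h, 5.02%, against 8.5%), and in the 10 h pair 0, where the numbers were not taken as pairs. No count other than these 2-fold calls was made with the block. The excess of XLOC_032013 in polysomes at 4 h (log2 fold change 0.65, under 2-fold) had an edgeR adjusted p of 0.000312 with the block and of 0.0572 without it. For XLOC_028812 the edgeR adjusted p was 4.77e-06 with the block and 0.001002 without it, and for XLOC_003080 1.335e-08 and 9.84e-06.

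With single libraries left out, the lower short loci numbered 428 to 520 at 2 h and 388 to 509 at 4 h, the higher ones 17 to 24 and 7 to 16 (7 without total library 3 at 4 h), and the median changes were -0.67 to -0.54 and -0.64 to -0.50. Calls ranged from 5 to 8 and 44 to 50 in total mRNA at 2 h and 4 h, from 151 to 171 in polysomal against total at 4 h and 0 to 0 at 10 h. At 2 h these were 0.534% to 0.855% of the short loci, against 0.265% to 0.482% of all loci tested. At 4 h they were 4.7% to 5.34%, against 7.58% to 8.69%, in total mRNA. In polysomal against total mRNA they were 16.1% to 18.3%, against 3.55% to 4.88%. Losing minus keeping at 4 h ranged from -0.10 to 0.10, the log2 ratio of length from -0.16 to -0.11 and that of FPKM from 0.96 to 1.11. Leaving out the 69 loci below 0.1 of the median length, an alternative chosen after seeing the data, gave 439 and 408 lower loci and a log2 ratio of length of -0.08 in place of -0.13. Depth limits single loci of few fragments, and the polysomal groups at 0 h and 2 h have no measured spread.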
